A study of Mus musculus with 8 samples.

Results

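The genes described here encode the nuclear part of oxidative phosphorylation, the respiratory chain and ATP synthase of the mitochondrial inner membrane. Members were found by symbol: names starting with Nduf, Uqcr, Cox followed by 4 to 8, or Atp5, and *Sdha* to *Sdhd*, without entries marked as pseudogenes by -ps. This gave 98 of the 40840 genes in the count tables, of which 93 passed the filter on low counts. They fall into 43 complex I genes, 8 complex I assembly factors, 4 complex II, 8 complex III, 18 complex IV and 17 complex V genes. The complex I genes include entries that match the name rule but are not annotated as protein-coding in GENCODE. *Ndufa11b*, *Ndufb4c* and *Ndufs6b* are listed there as transcribed processed pseudogenes, and *Ndufb4b* as a long noncoding RNA. The 5 genes below the filter were *Cox6a2*, *Cox8b*, *Ndufa11b*, *Ndufb4b* and *Ndufb4c*, with at most 16 reads in any mouse.

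RNAseq was performed on whole testes of 12-day-old mice, 4 wild type and 4 *Tra2b-cPEko*, an age at which the first spermatocytes are about to enter the pachytene stage of meiosis. The mice named wild type carried *Tra2bPE* fl/+ without Cre, so 1 *Tra2b* poison exon was flanked by LoxP sites in them too. The *Tra2b-cPEko* mice were *Tra2b* fl/- with *Vasa-Cre*, which recombines in germ cells before birth, on the same C57BL/6J background. Their somatic cells (Sertoli, Leydig and myoid cells) kept the exon on the floxed allele, while the other allele was deleted throughout the animal. Replicates were independent mice, lettered A to D in each genotype, and the study's methods state that the exact age could bring slight variation in cell types. Wild type A and B stood apart from the other 6 mice, in the sums of some germ cell marker lists and in the members. Fits without wild type A and B are given beside those with all mice. The deleted exon cannot be seen in counts per gene. CPM are counts scaled to library size with TMM factors. *Tra2b* itself was between 155.8 and 175.6 CPM in wild type and between 190.3 and 208.9 CPM in *Tra2b-cPEko* mice. Its log2 fold change was 0.27 (adjusted p = 0.0552, edgeR quasi-likelihood test with Benjamini-Hochberg adjustment). The study, using DESeq2, reports this rise as significant at nearly the same fold change. It also reports stronger nuclear staining of the Tra2β protein at this age. The controls there included heterozygous (*Tra2b-PEhet*) mice beside wild type, and the test was over single nuclei.

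Complex I takes electrons from NADH and complex II from succinate, complex III passes them to cytochrome c, and complex IV hands them to oxygen. The proton gradient built on the way drives complex V, the ATP synthase. Most subunits are encoded in the nucleus and a few in mitochondrial DNA, and the tissues of the body can swap single subunits of complex IV for paralogues. In the testis, *Cox6b2*, *Cox7b2* and *Cox8c* are known as testis forms of subunits that other tissues make from *Cox6b1*, *Cox7b* and *Cox8a*. The mitochondrial protein genes were not analysed here.

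Promoters of these genes are known to hold sites of nuclear respiratory factor 1 and of ETS and YY1 factors. Therefore 3 short motifs were sought on both strands of the 250 bases before and 50 bases after a start in RefSeq (GRCm38.p6). An entry was there for 78 of the 98 members. The shares use 1 start per gene, and where a gene had several, the one with the lowest coordinate. CCGGAAG, the core of an ETS site, was in 24.4% of member promoters, in 9.08% of all 27025 promoters and in 11.8% of those of protein-coding genes. GCGCATG, the core of a nuclear respiratory factor 1 site, was in 19.2%, 3.99% and 4.84% respectively. For AAGATGG, the core of a YY1 site, the shares were 15.4%, 6.46% and 6.35%. At least 1 of the 3 was in 47.4% of member promoters against 17.8% of all. Member promoters also held more CG dinucleotides, with a median of 19.5 against 13 in protein-coding genes. These shares describe letters in these windows, and no binding was measured. The promoters below show both motifs in *Sdhb* and *Cox6a1* (where GCGCATG is read on both strands and overlaps itself), the third motif in *Cox7c*, and the paralogues *Cox6b1*, with CCGGAAG on the reverse strand, and *Cox6b2* and *Cox7b2*, with none of the 3. Capitals mark the motifs, and each sequence is written in the direction of transcription.
Sdhb: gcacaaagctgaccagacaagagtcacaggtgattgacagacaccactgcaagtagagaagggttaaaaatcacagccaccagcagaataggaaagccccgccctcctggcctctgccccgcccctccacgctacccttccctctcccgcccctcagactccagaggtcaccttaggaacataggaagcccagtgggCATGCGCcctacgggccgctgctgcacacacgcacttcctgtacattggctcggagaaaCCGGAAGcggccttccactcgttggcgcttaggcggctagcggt
Cox6a1: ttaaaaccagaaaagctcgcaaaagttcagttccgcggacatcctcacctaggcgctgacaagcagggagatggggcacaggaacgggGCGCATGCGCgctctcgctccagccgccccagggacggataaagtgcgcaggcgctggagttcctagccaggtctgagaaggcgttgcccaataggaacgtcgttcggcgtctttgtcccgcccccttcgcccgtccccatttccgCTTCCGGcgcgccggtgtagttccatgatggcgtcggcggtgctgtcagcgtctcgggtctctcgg
Cox7c: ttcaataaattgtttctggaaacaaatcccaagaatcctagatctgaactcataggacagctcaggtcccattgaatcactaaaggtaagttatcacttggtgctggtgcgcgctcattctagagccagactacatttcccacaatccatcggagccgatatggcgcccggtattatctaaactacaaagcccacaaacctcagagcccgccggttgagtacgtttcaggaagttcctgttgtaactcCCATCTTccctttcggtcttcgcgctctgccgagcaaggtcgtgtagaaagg
Cox6b1: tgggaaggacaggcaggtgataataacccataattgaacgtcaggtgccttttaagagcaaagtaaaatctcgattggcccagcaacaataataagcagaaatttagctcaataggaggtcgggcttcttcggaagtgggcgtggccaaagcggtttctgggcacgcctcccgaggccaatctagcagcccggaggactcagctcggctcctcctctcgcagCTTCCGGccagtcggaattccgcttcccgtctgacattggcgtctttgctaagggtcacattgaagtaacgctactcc
Cox6b2: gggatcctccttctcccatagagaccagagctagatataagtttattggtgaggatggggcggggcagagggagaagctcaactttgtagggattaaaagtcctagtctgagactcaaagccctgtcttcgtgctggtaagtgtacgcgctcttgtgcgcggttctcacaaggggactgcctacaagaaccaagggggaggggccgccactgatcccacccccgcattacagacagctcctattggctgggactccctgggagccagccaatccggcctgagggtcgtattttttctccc
Cox7b2: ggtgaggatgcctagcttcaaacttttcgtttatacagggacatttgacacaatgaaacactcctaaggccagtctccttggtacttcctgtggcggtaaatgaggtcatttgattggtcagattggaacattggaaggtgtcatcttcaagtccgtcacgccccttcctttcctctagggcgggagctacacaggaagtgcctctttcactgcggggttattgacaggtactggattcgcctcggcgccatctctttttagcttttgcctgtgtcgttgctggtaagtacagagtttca
*Sdhb* is at chr4:140961021-140961320 (+ strand), *Cox6a1* at chr5:115348909-115349208 (- strand), *Cox7c* at chr13:86046746-86047045 (- strand), *Cox6b1* at chr7:30626065-30626364 (- strand), *Cox6b2* at chr7:4753045-4753344 (- strand) and *Cox7b2* at chr5:71548156-71548455 (- strand).

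Members took 0.76% to 0.851% of the reads on genes in the wild type libraries and 0.749% to 0.765% in the *Tra2b-cPEko* libraries, out of 36757386 to 59101569 reads on genes per mouse. Divided by transcript length, as RPKM (CPM per kilobase of transcript), the median level of the tested members in wild type was 58.0. Complex V had a median of 109.8 RPKM, complex IV 101.4, complex III 77.7, complex II 57.4 and complex I 49.0, while the complex I assembly factors, which do not stay in the finished complex, had 8.25. *Atp5b*, the catalytic beta subunit of ATP synthase, had the highest level at 408 ± 14.0 RPKM (SD, n = 4). *Cox4i1*, the general form of the largest nuclear subunit of cytochrome c oxidase, followed with 299 ± 19.6 RPKM (SD, n = 4). Both kept these places when the median length of a gene's coding transcripts was used in place of its canonical transcript. Other places moved with the length chosen. With the other length *Ndufa13* in place of *Ndufa4* was highest in complex I, and *Uqcrb* in place of *Uqcr10* in complex III.

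**Figure D1:**
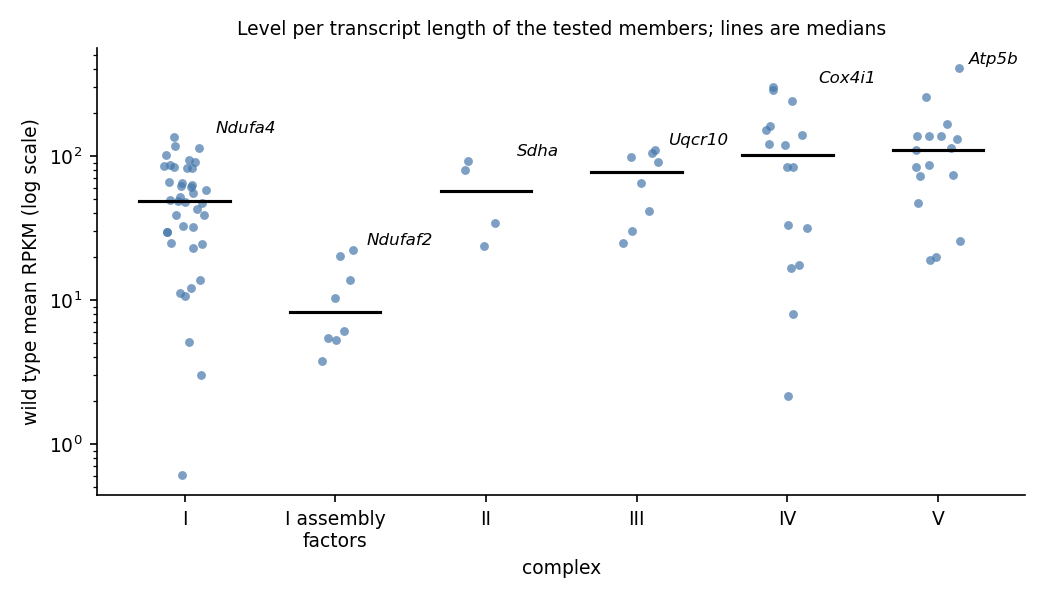
Mean level in the 4 wild type mice, in RPKM on a log scale, of each tested member, by complex. The black lines are medians, from 8.25 RPKM in the complex I assembly factors to 109.8 RPKM in complex V, and the named gene is the highest of each complex.

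Differences of the members between the genotypes were small, and nearly all of them had the same sign. Of the 93 tested, 87 had a negative log2 fold change, or 93.5%, where 50.3% of all 19104 genes tested did. The median was -0.0851, a difference of -5.78%, beside -0.00108 over all genes. No member passed an adjusted p under 0.05 in the edgeR quasi-likelihood test with Benjamini-Hochberg adjustment over all genes, where 0.157% of genes did, and the smallest adjusted p was 0.131, of *Uqcrb*. With limma-voom the count was 0 as well, and DESeq2 called 2, *Uqcrb* and *Atp5mpl*, where it called 2.79% of genes.

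At an unadjusted edgeR p under 0.05, 25 members were lower in *Tra2b-cPEko* testes, where 7.07% of all genes were, and 0 were higher, where 8.22% were. In 8 members the *Tra2b-cPEko* mice all lay below the wild type mice, where 4.18% of all genes did, and in 0 they all lay above, where 4.36% did. These 8 were *Ndufa11*, *Ndufs6*, *Ndufs8*, *Ndufaf4*, *Uqcrb*, *Atp5b*, *Atp5md* and *Atp5mpl*. The 95% interval of a member's log2 fold change reached 0.126 to either side of the estimate in the median, and the interval included 0 in 68 members and lay below 0 in 25.

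**Figure D2:**
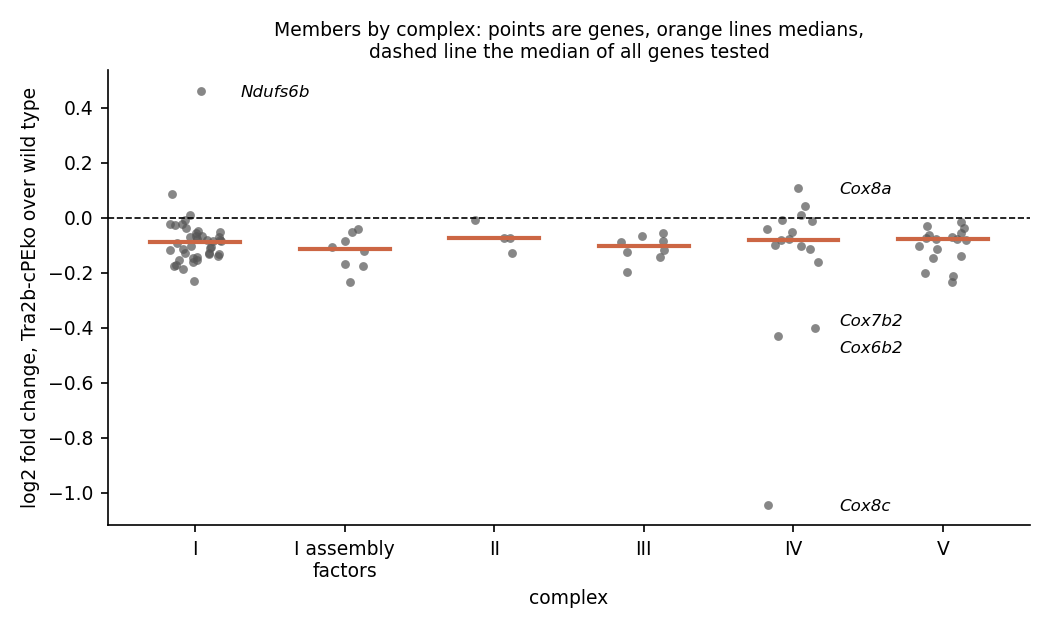
The log2 fold change of *Tra2b-cPEko* over wild type for each of the 93 tested members, by complex. The points of every complex centre just below the dashed line of all genes, with medians (orange) from -0.11 to -0.07, and *Ndufs6b* (0.46) and the 3 testis forms of complex IV (-0.40 to -1.04) lie farthest out.

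Member by member, wild type mice A and B stood above the other 6. The median deviation of the 93 members from their wild type mean, on the log2 scale, was 0.0422 in wild type A and 0.0884 in B, but -0.0779 in C and -0.0542 in D. In the *Tra2b-cPEko* mice it was -0.0835, -0.110, -0.104 and -0.0799 in A to D. Wild type C thus lay just above the highest *Tra2b-cPEko* mouse. Wild type B held the highest value of 53 members and wild type A that of 26, so that 84.9% of members were highest in A or B, where 31.3% of all genes were. The lowest value was most often in *Tra2b-cPEko* B, for 30 members. Members also varied more among wild type mice, with a median coefficient of variation of 7.01% against 4.19%, and 78.5% of them varied more in wild type, where 62.1% of all genes did.

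Markers of pachytene spermatocytes, taken as a sum, stood apart in the same mice. The summed level of the 7 genes of that list was 279.6 and 294.5 CPM in wild type A and B, 149.9 and 175.1 CPM in C and D, and between 166.3 and 216.5 CPM in *Tra2b-cPEko* mice, with *Pgk2* and *Adam3* below the filter. Not every gene of that list followed. *Mybl1*, at 58.6 and 54.7 CPM in wild type A and B, lay within the *Tra2b-cPEko* range (51.0 to 59.5 CPM). *Ccna1* was lowest in wild type A, at 0.317 CPM. The 10 leptotene and zygotene genes summed to 1862 and 1639 CPM in wild type A and B and to 1373 to 1549 CPM in the other 6 mice. Among them *Smc1b* was lowest in wild type B, at 267.3 CPM. The sum of the undifferentiated spermatogonia markers was lowest in the same 2 mice, at 265.3 and 261.6 CPM against 270.9 to 308.4 CPM elsewhere. Single genes of that list did not all follow. *Sall4* in wild type A, at 61.9 CPM, was above all *Tra2b-cPEko* mice (50.5 to 59.4 CPM). *Id4* was at 17.3 CPM in wild type B and 13.1 CPM in C. The sum of the erythroid genes was highest in wild type A and B, at 97.9 and 137.7 CPM, against 25.2 to 82.5 CPM elsewhere. The 5 genes of differentiating spermatogonia all had a negative log2 fold change, and summed to 456.8 to 497.4 CPM in wild type and 396.1 to 457.5 CPM in *Tra2b-cPEko* mice. Of these, *Sohlh1*, named here after its values were seen, was called by both tools (log2 fold change -0.34, adjusted p = 0.0341 in edgeR and 9.2e-06 in DESeq2). Sertoli genes, the most abundant list, ranged from 6109 to 6543 CPM in wild type and from 6075 to 6849 CPM in *Tra2b-cPEko* mice. Macrophage genes summed to 97.5 to 117.7 CPM in wild type and 117.7 to 143.3 CPM in *Tra2b-cPEko* mice, and Leydig genes to 393.4 to 467.3 CPM and 414.3 to 656.2 CPM. Skeletal muscle markers summed to at most 3.25 CPM. The 4 brown adipocyte genes summed to 45.3 to 50.8 CPM in wild type and 43.2 to 51.9 CPM in *Tra2b-cPEko* mice. Most of that was *Cidea*, with means of 39.4 and 38.5 CPM, while *Ucp1* and *Adipoq* were below the filter. Reads outside annotated genes also differed between the genotypes, at 12.4% to 12.8% of all reads in wild type and 13.2% to 13.6% in *Tra2b-cPEko* libraries, with wild type A and B at 12.8% and 12.6%. The part of these cells and reads in the members' differences was not tested, and in whole testis fewer cells of a type and less RNA per cell cannot be told apart.

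A fit without wild type A and B was added after the data were seen, and it has fewer wild type mice. Those mice held the highest value of 84.9% of members, so leaving them out tends by construction to shrink the differences and turn signs. Such a fit shows how far the differences rest on these mice, and nothing about why. Of its 94 tested members 63 had a negative log2 fold change, where 49.5% of all genes did. The median was -0.0351, beside 0.00155 over all genes. In this fit 0 members passed the adjusted threshold, where 0.00504% of genes did. At an unadjusted p under 0.05, 3 were lower, where 4.24% of genes were. These 3 were *Uqcrb*, *Atp5md* and *Atp5mpl*. In all, 26 members that were negative with all mice became positive. The medians by complex were then -0.0413 in complex I, -0.0412 in its assembly factors, 0.0007 in complex II, -0.0474 in complex III, -0.0145 in complex IV and -0.0361 in complex V.

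**Figure D3:**
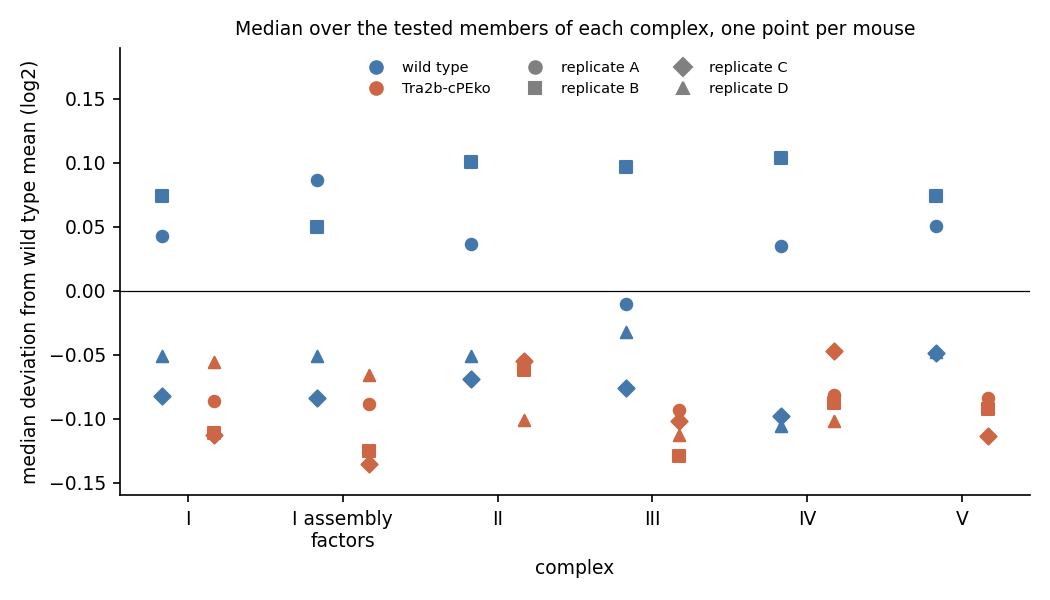
Median deviation of the tested members of each complex from their wild type mean, on the log2 scale, with 1 point per mouse. Wild type A (blue circles) and B (blue squares) lie above the *Tra2b-cPEko* mice (orange) in every complex, from -0.0101 to 0.104, while wild type C and D lie at -0.106 to -0.0320, overlapping the *Tra2b-cPEko* mice in complexes I, II and IV and in the assembly factors.

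Complex I, the NADH dehydrogenase, is the largest of the 5. Of its 40 tested genes 37 had a negative log2 fold change, with a median of -0.0895. Without wild type A and B, 26 of 41 tested genes were negative and 15 positive. With all mice, 12 were lower at an unadjusted edgeR p under 0.05, where 7.07% of all genes were. *Ndufv2*, a subunit of the NADH-oxidising arm, had the smallest p of these. Its levels were 107.1, 100.9, 89.2 and 97.6 CPM in wild type and 85.7, 88.1, 88.9 and 90.0 CPM in *Tra2b-cPEko* mice A to D. The groups overlapped only through wild type C, and the log2 fold change was -0.16 ± 0.05 (SE, n = 4 per genotype; adjusted p = 0.198, edgeR), or -0.08 without wild type A and B. *Ndufa4*, which carries a complex I name but is known as a subunit of cytochrome c oxidase, was the highest of these genes by canonical transcript length. It was between 68.5 and 75.2 CPM in wild type and between 67.4 and 70.3 CPM in *Tra2b-cPEko* mice, overlapping ranges with a log2 fold change of -0.07 (adjusted p = 0.482, edgeR), or -0.015 without wild type A and B. Its paralogue *Ndufa4l2* took between 1.91% and 2.37% of the summed RPKM of the pair in every mouse, or between 1.87% and 2.32% with the other length.

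The gene with the highest log2 fold change of all members was *Ndufs6b*, annotated as a transcribed processed pseudogene that is nearly identical to *Ndufs6* on another chromosome. It had 8 to 16 reads per library, or 0.204, 0.189, 0.252 and 0.203 CPM in wild type and 0.281, 0.245, 0.342 and 0.300 CPM in *Tra2b-cPEko* mice. The ranges overlapped and the log2 fold change was 0.46 ± 0.26 (SE, n = 4 per genotype; adjusted p = 0.452, edgeR). *Ndufs6* itself, a small accessory subunit, went the other way, between 38.0 and 42.9 CPM in wild type and between 36.2 and 37.7 CPM in *Tra2b-cPEko* mice (log2 fold change -0.11, adjusted p = 0.342, edgeR, or -0.04 without wild type A and B).

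All 8 complex I assembly factors had a negative log2 fold change, with a median of -0.114, and none was past an unadjusted p of 0.05. Of the 8, 5 were negative without wild type A and B. *Ndufaf5*, a methyltransferase-like assembly factor, was at 11.0, 10.2, 10.1 and 9.67 CPM in wild type and at 8.86, 10.1, 8.51 and 8.80 CPM in *Tra2b-cPEko* mice. Only *Tra2b-cPEko* B reached the wild type range, and the log2 fold change was -0.18 ± 0.08 (SE, n = 4 per genotype; adjusted p = 0.334, edgeR). *Ndufaf2*, which acts late in assembly and had the highest level per length of the 8, was between 14.9 and 16.7 CPM in wild type and between 14.0 and 15.8 CPM in *Tra2b-cPEko* mice, a log2 fold change of -0.12, or -0.06 without wild type A and B.

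Complex II, the succinate dehydrogenase, is the only complex made wholly from nuclear genes, and it is also part of the citrate cycle. *Sdha*, the flavoprotein subunit, had the highest level of the 4 per length and a difference near 0. It was at 286.9, 280.7, 292.7 and 283.1 CPM in wild type and at 279.3, 289.3, 286.9 and 280.2 CPM in *Tra2b-cPEko* mice. The ranges overlapped and the log2 fold change was -0.01, with a 95% interval from -0.09 to 0.07.

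The iron-sulfur subunit *Sdhb* was at 97.1, 102.7, 88.8 and 94.4 CPM in wild type and at 87.8, 85.7, 86.8 and 90.1 CPM in *Tra2b-cPEko* mice. Wild type C alone lay within the *Tra2b-cPEko* range, and the log2 fold change was -0.13 ± 0.05 (SE, n = 4 per genotype; adjusted p = 0.252, edgeR), or -0.06 without wild type A and B. The membrane anchors *Sdhc* and *Sdhd* both had log2 fold changes of -0.07 with overlapping ranges. Without wild type A and B theirs were 0.0261 and 0.0195.

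In complex III, ubiquinol-cytochrome c reductase, all 8 genes had a negative log2 fold change, 7 of them also without wild type A and B, with a median of -0.102. The clearest difference among all members was in *Uqcrb*, a small subunit that helps bind ubiquinone. It was at 57.9, 63.6, 58.2 and 55.1 CPM in wild type and at 50.5, 53.1, 49.5 and 51.7 CPM in *Tra2b-cPEko* mice A to D. The groups did not overlap. The exact permutation test gives every such member p = 0.0286, the smallest that 4 against 4 mice allows. This p therefore adds nothing to the lack of overlap. The log2 fold change was -0.20 ± 0.05 (SE, n = 4 per genotype), with an adjusted p of 0.131 in the edgeR quasi-likelihood test and 0.0265 in DESeq2, both with Benjamini-Hochberg adjustment. Without wild type A and B it was -0.14 (adjusted p = 0.388, edgeR). *Uqcrb* lies on chromosome 13 of GRCm39 from 67048655 to 67053443, has near-identical copies in *Gm16089*, *Gm2962* and *Gm5457*, and overlaps *Ramacl* on the other strand, so its count is uncertain to that extent.

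*Uqcr10*, another small subunit and the highest of complex III by canonical transcript length, was at 49.5, 53.5, 46.7 and 48.9 CPM in wild type and at 46.0, 43.0, 46.3 and 46.9 CPM in *Tra2b-cPEko* mice. *Tra2b-cPEko* D was just above wild type C, and the log2 fold change was -0.12 ± 0.05 (SE, n = 4 per genotype; adjusted p = 0.297, edgeR), or -0.07 without wild type A and B. The core subunits *Uqcrc1* and *Uqcrc2* and the Rieske iron-sulfur protein *Uqcrfs1* had log2 fold changes of -0.09, -0.08 and -0.06, with overlapping ranges. These became -0.0477, 0.0046 and -0.0631 without wild type A and B.

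In complex IV, cytochrome c oxidase, 3 testis forms lay apart from the other genes. Of 16 tested genes 13 had a negative log2 fold change, with a median of -0.0802 and a range from -1.04 to 0.11, and both ends were forms of subunit VIII. When wild type A and B were left out, 9 of the 16 were negative and the range was -0.14 to 0.12. *Cox8c*, the testis form, was at 12.4, 13.3, 4.25 and 5.05 CPM in wild type and at 4.05, 3.76, 4.45 and 4.66 CPM in *Tra2b-cPEko* mice. Wild type A and B stood far above all the others, whose values overlapped. Its log2 fold change was -1.04 ± 0.41 (SE, n = 4 per genotype; adjusted p = 0.296, edgeR), and -0.14 without wild type A and B.

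*Cox8a*, the widely expressed form, was at 83.6, 83.6, 80.6 and 93.3 CPM in wild type and at 94.1, 85.0, 90.6 and 98.2 CPM in *Tra2b-cPEko* mice. The ranges overlapped, with a log2 fold change of 0.11 ± 0.06 (SE, n = 4 per genotype; adjusted p = 0.387, edgeR). Per length, *Cox8c* took 14.3% and 15.1% of the subunit's summed RPKM in wild type A and B, 5.58% and 5.72% in C and D, and between 4.60% and 5.22% in *Tra2b-cPEko* mice. The other length gave wild type shares of 13.9%, 14.8%, 5.42% and 5.56%, with *Tra2b-cPEko* mice at 4.47% to 5.07%.

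The testis forms of the other 2 subunits were also highest in wild type A and B. *Cox6b2* was at 22.6, 27.3, 12.5 and 13.4 CPM in wild type and at 14.3, 12.4, 15.2 and 14.2 CPM in *Tra2b-cPEko* mice (log2 fold change -0.43 ± 0.26, SE, n = 4 per genotype; adjusted p = 0.483, edgeR). Its sign turned without wild type A and B, to 0.12. *Cox7b2* was at 21.2, 18.8, 12.9 and 13.9 CPM in wild type and at 12.7, 11.3, 13.3 and 13.2 CPM in *Tra2b-cPEko* mice (log2 fold change -0.40 ± 0.15, SE, n = 4 per genotype; adjusted p = 0.253, edgeR), and its log2 fold change was -0.09 without them. In each testis form wild type A and B were the 2 highest mice, and the other 6 overlapped. Wild type A and B were also the 2 highest in the sum of the pachytene list.

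The widely expressed partners varied little. *Cox6b1* was between 71.1 and 83.9 CPM in wild type and between 74.1 and 81.7 CPM in *Tra2b-cPEko* mice, with a log2 fold change of -0.01 and a 95% interval from -0.13 to 0.11. *Cox7b* was between 30.5 and 35.2 CPM in wild type and between 30.5 and 34.1 CPM in *Tra2b-cPEko* mice, with a log2 fold change of -0.05.

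**Figure D4:**
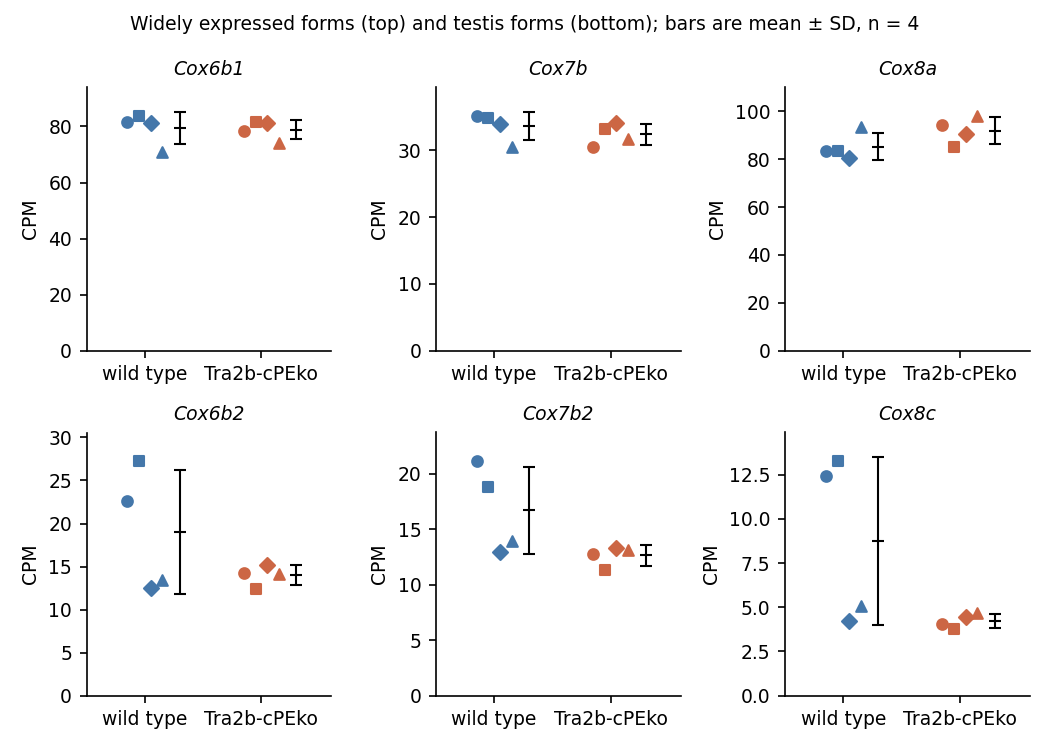
Levels in CPM of the widely expressed (top) and testis (bottom) forms of 3 complex IV subunits, with 1 point per mouse (circle A, square B, diamond C, triangle D; blue wild type, orange *Tra2b-cPEko*) and the mean ± SD of 4 mice beside them. In the bottom row wild type A and B stand above the other 6 mice, for *Cox8c* at 12.4 and 13.3 CPM against 3.76 to 5.05 CPM.

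In the other paralogues of complex IV the genotypes overlapped. *Cox4i1* was at 224.9, 256.1, 222.1 and 234.6 CPM in wild type and at 225.4, 217.5, 225.6 and 217.2 CPM in *Tra2b-cPEko* mice, with a log2 fold change of -0.08 (adjusted p = 0.442, edgeR), or -0.04 without wild type A and B. *Cox4i2*, the form known from lung, took between 0.620% and 0.843% of that subunit's RPKM in all mice. *Cox6a2*, the heart and muscle form, was at most 0.271 CPM in any mouse, and *Cox6a1* was at 128.2 to 149.7 CPM in wild type and 129.6 to 142.8 CPM in *Tra2b-cPEko* mice. The muscle form *Cox7a1* was between 5.72 and 8.89 CPM over all mice, *Cox7a2* between 58.0 and 75.1 CPM and *Cox7a2l*, a protein that joins complexes into supercomplexes, between 95.4 and 113.2 CPM. The most negative log2 fold change of these 6 tested genes was -0.16, in *Cox7a2* (adjusted p = 0.265, edgeR). That of *Cox7a2* was -0.0407 without wild type A and B, and those of *Cox6a1* and *Cox7a1* turned positive.

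In complex V, the ATP synthase, all 17 genes had a negative log2 fold change, with a median of -0.0769. At an unadjusted edgeR p under 0.05, 7 were lower, where 7.07% of all genes were. With A and B of the wild type left out, 14 of the 17 were negative, with a median of -0.0361. *Atp5b* was at 813.9, 804.0, 759.6 and 766.4 CPM in wild type and at 732.4, 755.9, 749.1 and 734.8 CPM in *Tra2b-cPEko* mice. The groups did not overlap, by a small margin, and the log2 fold change was -0.08 ± 0.04 (SE, n = 4 per genotype; adjusted p = 0.367, edgeR), or -0.04 without wild type A and B. Its partner *Atp5a1*, the alpha subunit, was between 613.7 and 664.1 CPM in wild type and between 592.8 and 614.1 CPM in *Tra2b-cPEko* mice, with a log2 fold change of -0.07, or -0.04 without them.

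The 2 genes with the smallest p of complex V encode small accessory subunits of its membrane part. *Atp5mpl*, now named *Atp5mj*, is at bases 111925397 to 111933510 of chromosome 12 in GRCm39. Its levels were 59.5, 54.0, 51.4 and 51.9 CPM in wild type and 49.7, 43.3, 47.4 and 47.0 CPM in *Tra2b-cPEko* mice. The groups did not overlap, and the log2 fold change was -0.21 ± 0.06 (SE, n = 4 per genotype), with an adjusted p of 0.144 in edgeR and 0.0470 in DESeq2, both with all mice. Without wild type A and B it was -0.14 (adjusted p = 0.449, edgeR). *Atp5md*, now *Atp5mk* and named here after its values were seen, was between 54.1 and 58.0 CPM in wild type and between 49.1 and 52.2 CPM in *Tra2b-cPEko* mice. It also did not overlap, with an adjusted p of 0.173 in edgeR and 0.0501 in DESeq2. Both genes overlap others on the opposite strand.

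The genes *Atp5g1*, *Atp5g2* and *Atp5g3* encode the same mature protein of the rotor ring. Each took about the same part of their summed RPKM in all mice, between 30.5% and 34.0%, between 29.2% and 32.5% and between 35.0% and 39.0% respectively. With the other length *Atp5g3* took between 40.1% and 44.2%, and was the highest of the 3 under both. Their log2 fold changes were -0.06, -0.08 and -0.03, and the genotypes overlapped in all 3. They were -0.0222, 0.0270 and -0.0075 without wild type A and B. The ATP synthase inhibitor *Atpif1* lies outside the name rule. It was at 115.1 ± 8.04 CPM in wild type and at 115.4 ± 2.84 CPM in *Tra2b-cPEko* mice (SD, n = 4 each), a log2 fold change of 0.004.

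Genes that build, feed or regulate the chain had medians nearer to 0. Of 38 tested assembly factors outside the name rule, 32 had a negative log2 fold change, with a median of -0.0516, and edgeR called 0. At an unadjusted edgeR p under 0.05, where 7.07% of all genes were lower, 5 of these assembly factors were. DESeq2 called 1 of them, *Sdhaf4*, an assembly factor of complex II named here after its values were seen. It was at 12.4 ± 0.511 CPM in wild type and at 10.4 ± 0.246 CPM in *Tra2b-cPEko* mice (SD, n = 4 each), with an adjusted p of 0.131 in edgeR and 0.0296 in DESeq2. The median was -0.0266 over 12 genes of the electron carriers cytochrome c and ubiquinone, -0.0078 over 12 citrate cycle enzymes and 0.0019 over 11 regulators of mitochondrial genes. Neither edgeR nor DESeq2 called any of these 35. Of them 1, in the regulators, was lower at an unadjusted edgeR p under 0.05, where 7.07% of all genes were. Cytochrome c also has a testis form, *Cyct*, which was at 13.6, 14.4, 9.21 and 10.1 CPM in wild type and at 9.12, 8.83, 9.64 and 10.9 CPM in *Tra2b-cPEko* mice, with wild type A and B again highest. The general form *Cycs* was at 214 ± 11.0 and 214 ± 10.4 CPM (SD, n = 4 each).

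Other short transcripts had a median log2 fold change close to that of the members, with a smaller share of negative values. Among protein-coding genes that are no members, grouped after the data were seen, the median log2 fold change was -0.0739 over the 641 genes with a canonical transcript of 1000 bases or less, of which 68.8% were negative, 93 were lower and 18 higher at an unadjusted p under 0.05. Of the members of that length 90.9% were negative, 12 were lower and 0 higher. Over all genes tested 7.07% were lower and 8.22% higher. The median of other genes was -0.0389 over the 2570 genes above that and up to 2000 bases, -0.0148 over the 5877 up to 4000 bases and 0.0154 over the 6134 longer ones. Members did not follow that order, with -0.0829 over the 44 of 1000 bases or less, -0.0840 over the 24 up to 2000 bases and -0.0935 over the 25 longer ones. These classes rest on the canonical transcript, and classes by the other length were not made. *Atp5md* (2812 bases) and *Ndufb2* (4389 bases) count as long, with median coding transcripts of 423 and 476 bases. *Cox7a2* (814 bases) counts as short, with a median of 5162 bases.

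Cytosolic ribosomal protein genes had a median of -0.0943, with 87 of 94 negative, and mitochondrial ribosomal protein genes -0.0805, with 74 of 78 negative. Both families were also counted among the other genes of their length, so these comparisons are not separate. In the shortest class of other genes, too, the mice ranged from -0.0864 to 0.0944 in wild type and from -0.0978 to -0.0447 in *Tra2b-cPEko*. The part of transcript length in the members' shift was not tested.

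**Figure D5:**
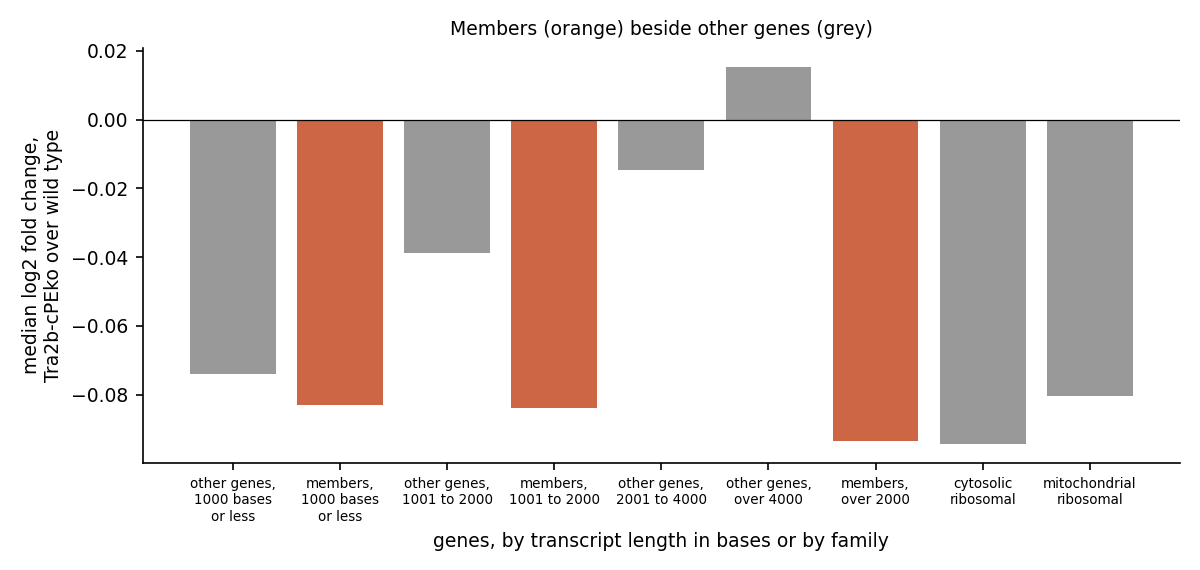
Median log2 fold change of *Tra2b-cPEko* over wild type for members (orange) and other protein-coding genes (grey) by length of the canonical transcript, and for ribosomal protein genes. Members of each length lie at -0.0829 to -0.0935, next to other genes of 1000 bases or less (-0.0739) and both ribosomal families, and below longer genes. The ribosomal families are also part of the other genes of their length.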

How the data were processed

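Total RNA of whole testes of independent 12-day-old mice was sequenced from stranded mRNA libraries. The authors deposited 1 table of raw read counts per gene for each mouse. The submitters' processing notes name HISAT2 2.2.1, SAMtools 1.7.1, HTSeq 2.0.2 and GRCm39, while the study's methods name Salmon for counting; the tables end in the 5 summary lines that HTSeq writes, which held 31.0% to 32.4% of all reads in wild type and 32.7% to 33.6% in *Tra2b-cPEko* libraries and were left out. Whether counting used strand is not given in the sources used here, and 65 members overlap a gene on the other strand. Reads that fit several places were not counted, and 15 members have a copy elsewhere in GENCODE vM39 of at least 95% identity over 50% of a transcript (BLAST+ 2.17.0).

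Counts were fitted in R 4.3.3 with edgeR 4.0.16 (least count 10, least total 15, TMM factors, robust quasi-likelihood F-test, genotype as the only term), adjusted by Benjamini-Hochberg over all 19104 genes with a threshold of 0.05. DESeq2 1.42.0, which the authors used, and limma 3.58.1 (voom) were alternatives, with RLE and upper-quartile factors, other filters, a threshold of 0.1, the replicate letter as a block and fits without each mouse. CPM and RPKM were computed from the counts, with lengths of canonical GENCODE transcripts, matched for all 98 members. The exact permutation test was two-sided over 70 arrangements of 8 mice. The fits were also run on simulated counts, and that outcome is not given here. The genes named by rule are, in each group, the tested members with the smallest p in each direction and with the highest level, the paralogues of 1 subunit and complex II. Other members given with values, such as *Atp5a1*, *Ndufs6*, *Uqcrc1*, *Uqcrc2* and *Uqcrfs1*, were outside this rule. Members and lists were chosen with earlier results of these data known, so that no p is given over a list. Figures were drawn in Python 3.11.15 with matplotlib 3.10.9.

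Between libraries of 1 genotype the chi-square of the counts, divided by its degrees of freedom, was 6.24 to 19.1, so none repeats another. With 1500 to 45239 reads on complex V members in every library, counting error was small there, and it is largest for *Ndufs6b*.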

Additional observations from a re-analysis of the deposited data

Results flagged for a closer look

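In complex II, *Tra2b-cPEko* D had a median deviation of -0.1008 (log2, from the wild type mean of the 4 genes), apart from the other 3 *Tra2b-cPEko* mice at -0.0621 to -0.0551. The gap to the nearest mouse was 0.847 of the range of the 4, above Dixon's limit for 4 samples. It is 1 of 72 groups of 4 mice examined, where chance gives about 3.6.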

How the results depend on the processing

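The member median log2 fold change stayed negative under all 16 alternatives, from -0.1211 to -0.0351, as did the share of negative members, from 67.0% to 94.6%. Members called were 0 in each alternative but DESeq2, with 2. *Uqcrb* and *Atp5mpl* passed only there, with log2 fold changes of -0.1997 and -0.2124. Members lower at an unadjusted p under 0.05 numbered 25, 14 with upper-quartile factors and 3 without wild type A and B (chosen after seeing the data). They numbered 8 to 41 with single mice left out (8 without wild type A, 9 without B, 41 without C, 14 without *Tra2b-cPEko* B and 16 without C). Over all genes that share was 7.07% with all mice and 4.24% without wild type A and B. For the other fits it is not given here. Calls over all genes numbered 30, and 507 with DESeq2, 58 with upper-quartile factors, 123 with no filter, 14 with a mean count of at least 50, 11 with limma-voom, 67 with the replicate block, 156 at an adjusted p under 0.1, 1 without wild type A and B, and 3 to 84 with single mice left out. With the replicate block no member was called. Same-letter mice did not deviate together (r from -0.135 to 0.116, 1 of 4 wild type mice closest to its own letter), so the letters were not taken as pairs. Without wild type A and B the median of complex II was 7e-04, that of complex IV -0.0145 and that of the assembly factors -0.0412. Without them the sign turned from negative to positive for 26 members, and the other way for *Cox5a*, from 0.01 to -0.0248. Among the genes named by rule it turned as follows. With upper-quartile factors it did for *Sdha* (0.0085), *Cox6a1* (0.0079) and *Cox6b1* (0.0099). Leaving out wild type A and B did so for *Cox6a1* (0.0350), *Cox6b1* (0.0540), *Cox6b2* (0.1155), *Cox7a1* (0.1232), *Cox7b* (0.0094), *Atp5g2* (0.0270), *Sdhc* (0.0261) and *Sdhd* (0.0195). With single mice left out, *Cox6a1* ranged from -0.0450 to 0.0333, *Cox6b1* from -0.0618 to 0.0198, *Cox4i2* from -0.1295 to 0.0289 and *Ndufa4l2* from -0.0824 to 0.0126. The fits that leave out mice show only how far the values rest on those mice, and the cause was not tested. Depth limits *Ndufs6b*, with 8 to 16 reads per library, and the 5 members below the filter.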
